A study of Mus musculus with 4 samples.

Results

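The p53 pathway genes described here are 10 genes chosen by name, the regulator Trp53 with its antagonist Mdm2 and 8 p53 targets (Cdkn1a, Ccng1, Bax, Bbc3, Pmaip1, Sesn2, Trp53inp1 and Eda2r), out of 24873 genes listed. All 10 passed the filter on low values, a mean of at least 10 normalized counts over the libraries, as did 20485 genes in all. RNA was sequenced from brain cells of mice with the genotype Cdh5cre;Mgpflox/flox, in which a tamoxifen-activated Cre recombinase under the VE-cadherin (Cdh5) promoter removes the floxed Mgp gene, so that Mgp is to be lost in endothelial cells. Both groups carried these alleles. Mice of the 2 tamoxifen libraries were 10 weeks old when injections of 75 mg per kg began, which were given on 5 days. Mice of the 2 control libraries received none; littermates served as controls in the study, and the age of these mice is not stated separately. Cells were sorted as CD31+CD45– on day 9 and pooled from 3 mice per library. The sample labels instead call them tdTomato+ brain cells. In the deposited table the control columns begin with C, and the other columns begin with the letter A, which no label uses. The A columns were read as the tamoxifen libraries, and the direction of every difference below rests on that reading.

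Reads on genes numbered 37475154 and 41025014 in the controls and 35387438 and 49799321 after tamoxifen. Values are normalized counts, that is, reads divided by a size factor for each library. Differences are log2 fold changes (tamoxifen minus control) on the log2(normalized count + 1) scale, with the standard error (SE) and the Benjamini-Hochberg adjusted p from limma over all genes tested. A gene was called at an adjusted p under 0.05 with a log2 fold change over 1 in size. With 2 libraries per group, the smallest two-sided p that exact permutation allows for any single value is 0.333.

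Mgp, the gene to be deleted, measured 1094 and 1352 normalized counts in the controls, against 945 and 909 after tamoxifen. The tamoxifen libraries lay below both controls, but the difference was not called (log2 fold change -0.39, SE 0.18, limma adjusted p = 0.0986), and it was 0.08 after rescaling to equal totals and -0.65 with quantile normalization. It was -0.54 without control replicate 1 and -0.24 without control replicate 2. Mgp therefore gave no clear check of the group labels. Which exons are floxed was not used here, so reads outside them would not show the deletion. By real-time PCR the paper reports a progressive loss of Mgp in cerebral endothelial cells after tamoxifen, which it takes as efficient deletion. The Mgp values above do not clearly show such a loss, and the reason was not tested. The paper also reports by real-time PCR that Kdr and vWF decreased after tamoxifen, and its RNA sequencing showed stem cell markers induced. In the columns read as tamoxifen, Kdr (log2 fold change -2.75) and Vwf (-2.815) were lower and the stem cell gene Sox2 (5.06) was higher. These values were not used to assign the columns. The paper's RNA sequencing gave these same data, so Sox2 is no independent check of the columns.

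The libraries differed in markers of cell type. Of 10 endothelial markers, 10 were called lower, with summed levels of 1236200 and 1171700 normalized counts in the control libraries against 195927 and 96284 after tamoxifen. The VEGF receptor gene Flt1, the most abundant of them, fell by 3.33 on the log2 scale (SE 0.44), and Pecam1, which encodes the CD31 used in the sort, fell by 2.85 (SE 0.31). Ptprc, which encodes the CD45 used to remove blood cells, measured 50.7 and 83.9 normalized counts in the controls, against 1423 and 1119 after tamoxifen. Endothelial markers were thus present in all 4 libraries at lower levels after tamoxifen. Fewer endothelial cells and less RNA per cell cannot be told apart in bulk RNA.

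Markers of other cells moved with the groups as well. Called higher were 7 of 7 neutrophil markers (summed level 297 and 232 against 108979 and 81197), with S100a9 the most abundant, and 7 of 7 pluripotency markers (199 and 272 against 49272 and 39570), with Tdgf1. The same held for 5 of 5 fibroblast markers (1712 and 2439 against 61493 and 50945), led by Col1a1, and 5 of 5 astrocyte markers (23768 and 26556 against 97112 and 208669), led by Slc1a2. Among erythroid markers 6 of 6 were called higher (18523 and 37749 against 170898 and 110539), led by Hbb-bs, and among lymphocyte markers 4 of 4 tested (57.5 and 78.9 against 2337 and 1731), led by Cd79b, with Cd3e at 0 reads in 1 control library. Of oligodendrocyte markers 4 of 5 were called higher (1090.3 and 1382 against 5181 and 5784; Cnp), of neuron markers 3 of 5 (690.3 and 916 against 8687 and 15492; Dcx) and of microglia and macrophage markers 3 of 6 (1182 and 2278 against 4017 and 3689). The last 3 were Tmem119, Aif1 and Ptprc, while Csf1r, the most abundant of that list, was not called (0.77). Csf1r was called with equal totals (1.24) and without control replicate 2 (1.23), and it passed by adjusted p alone (limma adjusted p = 0.0499). Cx3cr1 and P2ry12 overlapped between groups. Tmem119 and Aif1 lost their calls with quantile normalization (0.37 and 1.52) and without either tamoxifen library, and Tmem119 also without control replicate 1 (0.92) and with no trend. Pericyte markers were called in 1 of 5 (24685 and 43587 against 30704 and 62994), and the most abundant, Rgs5, overlapped between groups. Pituitary markers were called lower in 5 of 5 (13354 and 37620.4 against 114 and 83.4), led by Pomc, with Gh and Tbx19 at 0 reads in 1 tamoxifen library. Calls were lost for Slc1a2 without tamoxifen replicate 2 (2.29), and without tamoxifen replicate 1 or 2 for Cnp (1.54 and 1.27) and Hbb-bs (1.70 and 2.33). The part these markers play in the p53 pathway results was not tested.

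The p53 protein is a transcription factor that cells hold at a low level until DNA damage or other stress stabilizes it. It then activates genes that stop the cell cycle, start apoptosis or adjust metabolism, and it activates Mdm2, whose product marks p53 for degradation and so closes a feedback loop. Much of this control acts on the protein, so the Trp53 transcript does not measure p53 activity.

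Of the 10 members, 3 were called higher in the tamoxifen libraries (Eda2r, Ccng1 and Sesn2), 1 was called lower (Pmaip1) and 6 were not called. Over all 20485 genes tested, 28.6% were called higher and 16.0% lower, so the members' counts lay near the background in this fit. With libraries rescaled to equal totals 6 members were called higher and 1 lower, against 35.2% and 8.97% of all genes. With quantile normalization 5 were called higher and 2 lower, against 22.5% and 26.9%. By adjusted p alone 6 members were higher and 3 lower, against 33.4% and 25.5% of all genes tested. These counts were 4 and 1 with no trend and 6 and 1 with equal totals. Leaving out any 1 library lowered the count in at least 1 direction. Shares of all genes by adjusted p alone are not given for these refits, so their counts are not set against a background. The groups did not overlap for 9 members, 6 with the tamoxifen libraries above (43.1% of all genes) and 3 with them below (39.2%). The median log2 fold change was 0.62 over the members and 0.05 over all genes tested, and the members ranged from -1.48 to 4.83.

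**Figure D1:**
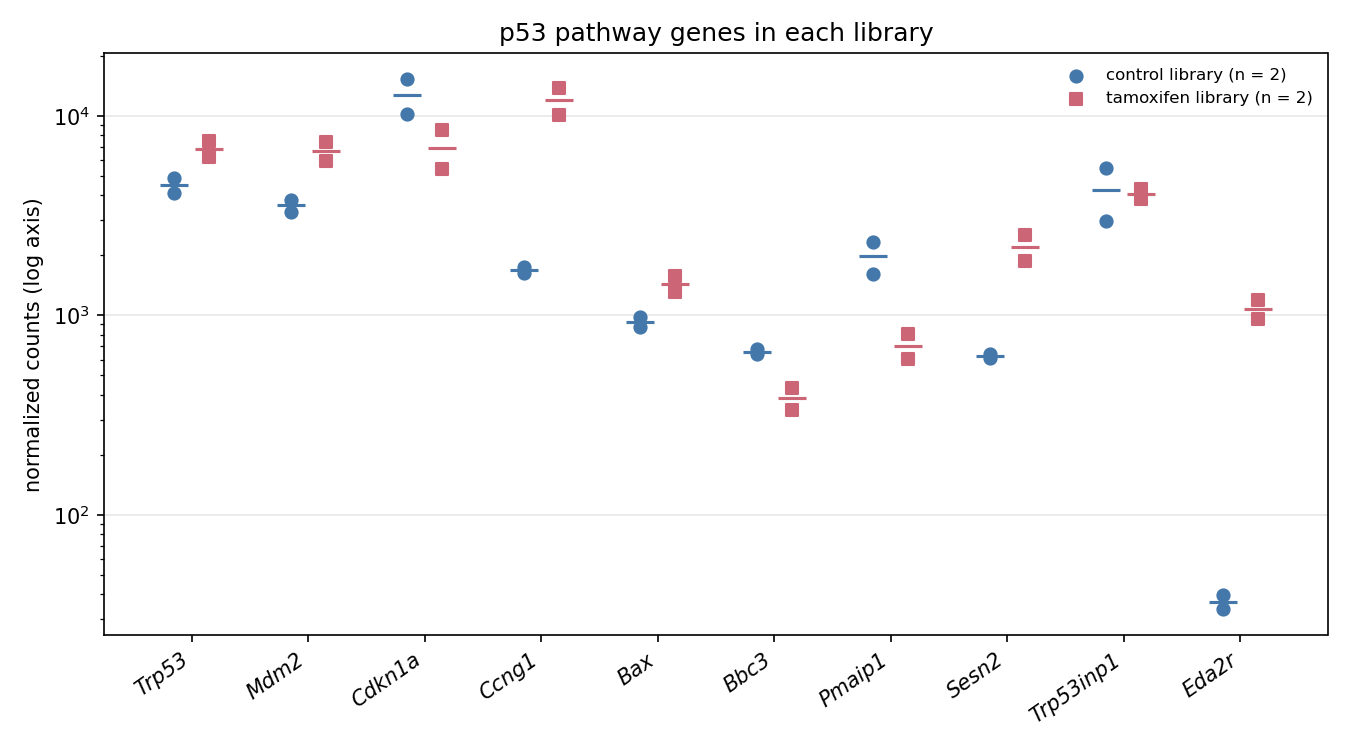
Normalized counts of the 10 p53 pathway genes on a log axis, with 1 point for each of 2 control and 2 tamoxifen libraries and a line at each group mean. The groups overlap for Trp53inp1 alone among the 10, and Eda2r lies near 37 normalized counts in the controls and near 1075 in the tamoxifen libraries.

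Trp53, which encodes p53 itself, lies at chr11:69469669-69482701 on the plus strand (GRCm39). It measured 4102 and 4859 normalized counts in the controls, against 7474 and 6196 after tamoxifen. Both tamoxifen values were above both controls. The log2 fold change was 0.61 (SE 0.17, limma adjusted p = 0.0184), under the size limit. Trp53 shares 263 exon bases with Wrap53 on the opposite strand, which measured 908 and 956 against 1001 and 828, and the strand setting of the counting is not given in the sources used here. The processed pseudogene Trp53-ps, which could take reads from Trp53, held 37.0 and 27.5 against 45.5 and 58.9 normalized counts.

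Mdm2, the ubiquitin ligase that degrades p53, measured 3801 and 3308 normalized counts in the controls, against 7391 and 5905 after tamoxifen. The groups did not overlap, and the tamoxifen libraries were the higher ones. The log2 fold change was 0.90 (SE 0.18, limma adjusted p = 0.00324), again under the size limit. For Trp53 and Mdm2 the call depended on scaling, as it did for Bax and Bbc3. With libraries rescaled to equal totals Trp53 and Mdm2 were called, at 1.08 and 1.37, where the median of all genes shifted by 0.47. With quantile normalization, where it shifted by -0.28, they were called at 1.00 and 1.26. Mdm2 was also called without tamoxifen replicate 2 (1.06, limma adjusted p = 0.0487), and its adjusted p was 0.0657 without tamoxifen replicate 1.

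Among the cell cycle genes, Cdkn1a encodes p21, the inhibitor of cyclin-dependent kinases through which p53 arrests cells. It measured 15194 and 10184 normalized counts in the controls, against 8441 and 5400.4 after tamoxifen. The tamoxifen libraries were the lower ones, and the control libraries differed from each other by more than the lower control differed from the higher tamoxifen library. The log2 fold change was -0.88 (SE 0.27, limma adjusted p = 0.0246) and was not called. It was -0.41 with equal totals (limma adjusted p = 0.212) and -0.34 with quantile normalization (0.282). Without control replicate 2 it was called at -1.17, and without tamoxifen replicate 2 it was -0.56 with an adjusted p of 0.292 from limma. Dino, a transcript on the opposite strand that shares 504 exon bases with Cdkn1a, measured 93.1 and 33.8 against 35.8 and 16.5 normalized counts.

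Ccng1, which encodes cyclin G1, a p53 target that acts on Mdm2 through a phosphatase, measured 1742 and 1625 normalized counts in the control libraries. The tamoxifen libraries held 13823 and 10042. Both tamoxifen values stood far above both controls, which lay close together. Ccng1 rose by a log2 fold change of 2.81 (SE 0.19, limma adjusted p = 2.98e-05), 7.09 times by group means. It shares 114 exon bases with Nudcd2 on the opposite strand, which measured 545 and 597 against 1936 and 1721 and was also called higher.

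Bax, Bbc3 and Pmaip1 belong to the BCL2 family and promote apoptosis at mitochondria. Bax, an effector that permeabilizes the outer membrane, measured 869.8 and 981 normalized counts in the controls, against 1569 and 1303 after tamoxifen. Bax shares 192 exon bases, 10.3% of its exons, with the protein-coding gene Gm45808 on the same strand, so its counts and ratios are uncertain to that extent. Bbc3, which encodes the BH3-only protein PUMA, measured 641 and 676 against 435 and 336. Pmaip1, which encodes the BH3-only protein NOXA, measured 2338 and 1612 against 805 and 602. The groups overlapped for none of these 3 genes, with Bax higher and both BH3-only genes lower in the tamoxifen libraries. Pmaip1 fell by 1.48 on the log2 scale (SE 0.24, limma adjusted p = 0.0012) and was called. Bax, at 0.63 (SE 0.18), and Bbc3, at -0.78 (SE 0.23), had adjusted p-values of 0.0182 and 0.0194 from limma and were not called. Bax was called at 1.10 with equal totals. Bbc3 was called at -1.55 with quantile normalization but was -0.31 with equal totals (limma adjusted p = 0.228). The call of Pmaip1 was lost without tamoxifen replicate 1 (log2 fold change -1.69, limma adjusted p = 0.0622) and without tamoxifen replicate 2 (-1.27, 0.095).

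Sesn2 encodes sestrin 2, a stress protein that restrains mTORC1 and is also induced by ATF4. It measured 614 and 643 normalized counts in the controls, against 2531 and 1877 after tamoxifen. The controls lay within a narrow range well below the tamoxifen libraries. Sesn2 rose by a log2 fold change of 1.79 (SE 0.20, limma adjusted p = 0.00019).

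Trp53inp1, which encodes a nuclear p53 cofactor linked to autophagy, measured 5495 and 2971 normalized counts in the controls, against 4309 and 3840.4 after tamoxifen. Both tamoxifen values lay between the controls, so the groups overlapped. The log2 fold change was 0.01 (SE 0.27, limma adjusted p = 0.979), and its sign changed with the tool and the libraries used.

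Eda2r encodes a receptor of the tumor necrosis factor receptor family that binds the A2 form of ectodysplasin. It measured 39.7 and 33.8 normalized counts in the control libraries, from 29 and 27 reads, and 1197 and 953 in the tamoxifen libraries. The control values were low and alike, and the tamoxifen values stood far above them. Eda2r rose by a log2 fold change of 4.83 (SE 0.31, limma adjusted p = 2.54e-05), the largest difference among the 10 members. Its ligand gene Eda rose from 13.7 and 23.8 to 305 and 345 normalized counts. Eda lost its call without tamoxifen replicate 2, at 4.001. Of 3 other genes of ectodysplasin signaling, Eda and the adaptor gene Edaradd were called higher, the latter from 8.22 and 1.25 normalized counts in the controls. Edaradd lost its call without tamoxifen replicate 1 (3.90) or 2 (4.57). The receptor gene Edar was not called (log2 fold change -0.30, limma adjusted p = 0.442), but was called at -1.43 with quantile normalization and was 0.17 with equal totals.

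**Figure D2:**
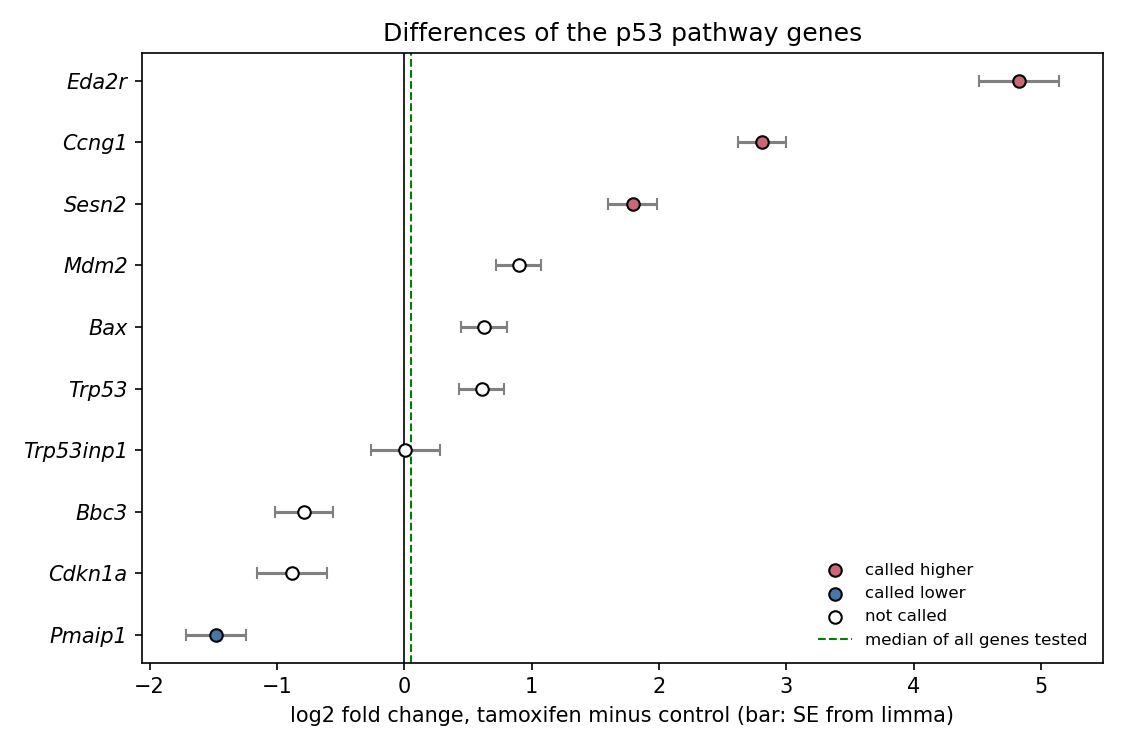
Log2 fold changes (tamoxifen minus control) of the 10 p53 pathway genes with the SE from limma as bars, 2 libraries per group, filled where called, and a dashed line at the median of all genes tested, 0.05. Eda2r, Ccng1 and Sesn2 are called higher and Pmaip1 lower.

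Levels were compared between genes per kb of exon, with all annotated exons of a gene counted. Ranks of genes and absolute ratios between genes therefore depend on the annotation, and the transcripts in use were not measured. In the control libraries Cdkn1a had the highest mean level, 2099 normalized counts per kb, and Eda2r the lowest, 4.90 per kb. In the tamoxifen libraries Ccng1 had the highest mean level, 2713 per kb, followed by Cdkn1a at 1145 per kb, and Bbc3 the lowest, 80.4 per kb. Cdkn1a per kb lay above every other member in both control libraries, and Ccng1 did so in both tamoxifen libraries. In the controls the neighbours Sesn2 and Bbc3 (138 and 137 per kb) did not differ beyond their spread. In the tamoxifen libraries the values of Cdkn1a (1396 and 893 per kb) and Trp53 (1013 and 840 per kb) overlapped.

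Ratios within a library do not change when a library is multiplied by a factor, but quantile normalization can change them. Mdm2 per kb relative to Mdm4, which encodes its partner in restraining p53, was 0.916 and 1.20 in the controls and 3.16 and 2.27 after tamoxifen. Mdm2 relative to Trp53 was 0.887 and 0.652 in the controls and 0.947 and 0.912 in the tamoxifen libraries. The first ratio separated the groups widely, and the second only narrowly, with a log2 difference of 0.29 that was 0.07 without control replicate 2. Cdkn1a relative to Trp53 was 4.52 and 2.56 in the controls and 1.38 and 1.06 in the tamoxifen libraries, lower in both of the latter.

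Bax was also set against genes for proteins that block apoptosis. Relative to Bcl2 it was 1.67 and 2.20 in the controls and 7.33 and 5.42 after tamoxifen. Relative to Bcl2l1 it was 0.15 and 0.157 in the controls and 0.884 and 0.952 in the tamoxifen libraries. Both ratios were higher in both tamoxifen libraries, while Bcl2l1 itself fell by 1.95 (SE 0.19) and Bcl2 fell by 1.09 (SE 0.17) on the log2 scale. Bcl2 was not called after rescaling to equal totals (-0.62), without control replicate 1 (-0.97) or without tamoxifen replicate 1 (-1.003). Bbc3 relative to Mcl1 was 0.0167 and 0.0212 in the controls and 0.0253 and 0.0255 in the tamoxifen libraries, above both controls although Bbc3 counts were lower. The log2 difference of Bbc3 to Mcl1 was 0.43, and it was 0.26 without control replicate 1 and 0.60 without control replicate 2. Its direction turned with quantile normalization (-0.996), an alternative chosen after seeing the data. Mcl1 fell by 1.22 (SE 0.22), and was not called with equal totals (-0.75), with quantile normalization (-0.55) or without tamoxifen replicate 2 (-1.03).

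**Figure D3:**
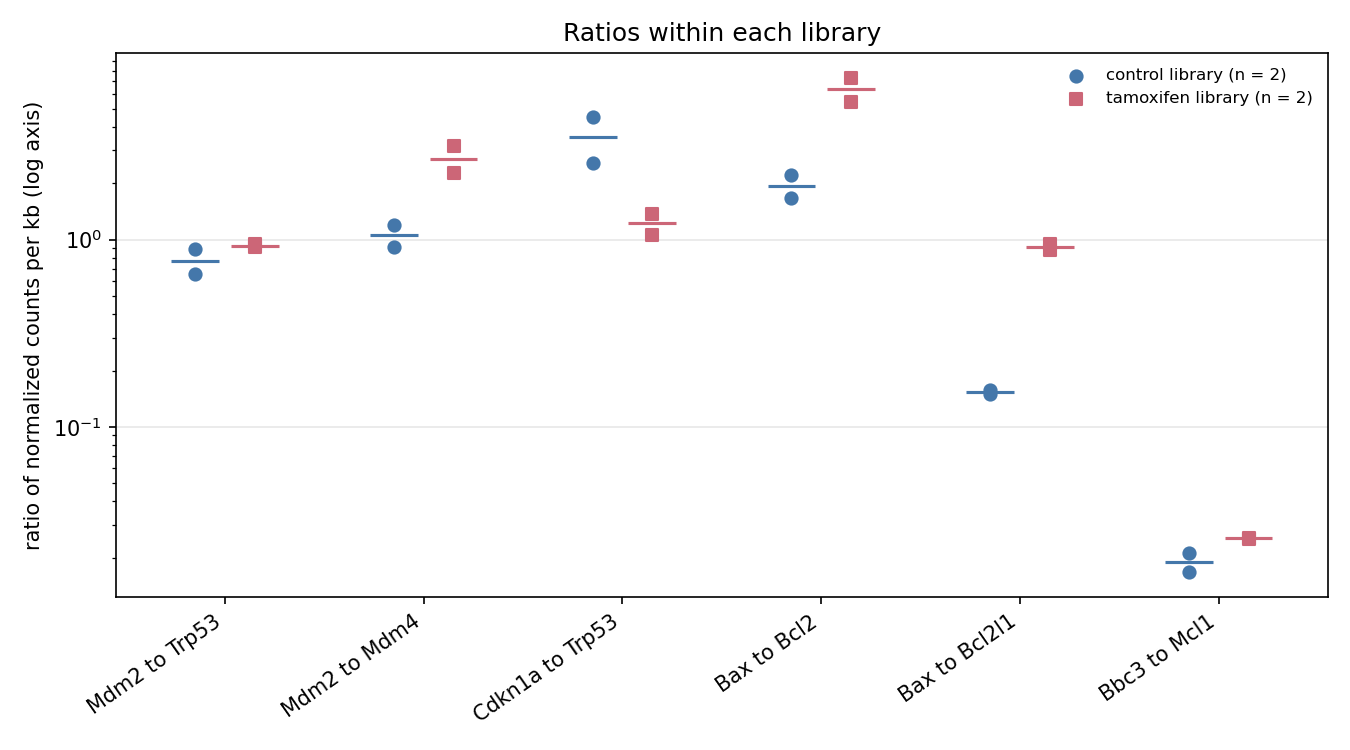
Ratios of normalized counts per kb within each of 2 control and 2 tamoxifen libraries on a log axis, with a line at each group mean. The Cdkn1a to Trp53 ratio lies lower in the tamoxifen libraries, and the other 5 ratios lie higher, of which Bbc3 to Mcl1 turns with quantile normalization.

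Other p53 targets were described by lists. Over 4 lists with 32 targets tested, 15 were called higher and 5 lower, with a median log2 fold change of 0.79, against 28.6% higher, 16.0% lower and a median of 0.05 over all genes tested. The same shares are the background of each list below, and no list was tested against them. The medians of the 4 lists differed in sign. They were -0.46 for arrest, 1.13 for death, 1.30 for metabolic and stress and -0.23 for repair and nucleotide targets. Of 7 other arrest targets, 2 were called higher and 2 lower. Gtse1 rose by 5.70 and Zmat3 by 1.49. Plk2 fell by 1.68 and was not called without tamoxifen replicate 2 (-1.40). Btg2 was the other gene called lower (-1.39). Of 10 other death targets, 5 were called higher and 1 lower. Phlda3, a repressor of AKT, rose by 4.49, Bid rose by 3.62, and the death receptor gene Fas fell by 2.89. Of 9 metabolic and stress targets, 7 were called higher and 1 lower. The gene called lower was Ddit4 (-1.22), the most abundant of that list. Among those called higher were Ak1 at 4.48, Gls2 at 2.13 and Dcxr at 1.77. The last 2 were not called with quantile normalization, at 0.94 and 0.81. Gls2 also lost its call without tamoxifen replicate 1 (1.91) or 2 (2.35), and Dcxr without tamoxifen replicate 1 (1.501). Of 6 repair and nucleotide targets, Pcna rose by 1.11 and Polk fell by 2.32.

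Upstream of p53, 1 of 6 damage kinases was called, Chek1, which rose by 5.09. Its call was lost without tamoxifen replicate 1 (4.997) and without tamoxifen replicate 2 (5.19). Of 12 regulators and cofactors, Cdkn2a rose by 3.80 and Ppp1r13b fell by 2.58. Among 12 paralogs of the members, 3 were called higher and 3 lower, including Trp73 at 4.19, Cdkn1c at -2.28 and Bok at -1.62. Of 12 other BCL2 family genes, 2 were called higher and 5 lower, with a median of -0.92 and Hrk at 2.86. Hrk lost its call without tamoxifen replicate 1 (3.16) or 2 (2.56). Bid is also counted among the death targets, and Bok and Bak1 among the paralogs. Mdm4 is counted among both the regulators and the paralogs, and Edar among both the paralogs and the genes of ectodysplasin signaling.

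Mitotic genes that p53 is known to lower through p21 were called higher in 9 of 9 cases, with a median log2 fold change of 6.03. Ccnb1 measured 26.0 and 30.04 normalized counts in the controls, against 4574 and 4057 after tamoxifen, and Birc5 rose by 6.84 and Top2a by 6.71. Of 9 integrated stress response genes, to which Sesn2 also belongs, 4 were called higher and 1 lower, and Vldlr rose by 4.60, Psat1 by 3.47 and Asns by 2.63.

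The p53 response element, 2 half-sites of 10 bases up to 13 bases apart, was searched by name within 3000 bases of each gene's canonical start on GRCm39. It reads the same on both strands. With no mismatch it was found near 2 of 10 members, Cdkn1a and Trp53inp1, and in 1.8% of 21757 windows of the same length. With at most 1 mismatch it was found near 5 of 10 members and in 16.9% of windows, and with at most 2 mismatches near 8 of 10 members and in 62.1% of windows. A match is a description of letters and not a bound site. The sites below, chosen after the values were seen, are from genes whose values stand above, written along the gene, with the core of each half-site in capitals.
Cdkn1a, chr17:29309902-29309921, plus strand, upstream, 1 mismatch: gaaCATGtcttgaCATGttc
Ccng1, chr11:40646289-40646308, minus strand, upstream, 1 mismatch: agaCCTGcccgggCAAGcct
Trp53inp1, chr4:11155112-11155132, plus strand, upstream, no mismatch: aaaCATGtccaggaCTAGcct
Eda2r, chrX:96420140-96420159, minus strand, intron, 2 mismatches: gggCAAGtccgggCCTGtgt
A Cdkn1a match with no mismatch, chr17:29309880-29309911, overlaps the printed one, whose first half-site is its second, and at 32 bases is not printed. Of the 2 members with a match of no mismatch, Trp53inp1 had overlapping groups and Cdkn1a did not.

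Leaving out a tamoxifen library reduced the calls over all genes from 9151 to 5024 (without tamoxifen replicate 1) and 4147 (without tamoxifen replicate 2), and Eda2r, Ccng1 and Sesn2 were called in all 14 refits. Calls split 5867 higher to 3284 lower, 7206 to 1838 with equal totals and 4615 to 5509 with quantile normalization.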

How the data were processed

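The authors aligned reads from a stranded mRNA kit to GRCm39 with STAR 2.7.10a and normalized them with DESeq2 1.36.0, per the submitters' processing notes and the study's methods. The deposited values are normalized counts, a signal scaled by 1 size factor per library. All value columns were used. Dividing each column by its smallest step gave whole reads for 100% of values (tolerance 0.01). The column letter A appears in no label; its assignment to tamoxifen was inferred from the lesion name and from the C of the other columns.

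The test was limma 3.58.1 with a mean-variance trend (R 4.3.3, pseudocount 1). Its code was run on simulated data in which few genes changed, each by a large amount. Far more genes differed here, so that run checks the code and not the calls. Counting tests on recovered reads called 9241 genes (edgeR 4.0.16) and 8739 (DESeq2 1.42.0). Alternatives covered pseudocount, filter, scaling, trend, block, tool and each library left out. Gene models came from GENCODE.

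Members and lists were chosen with earlier results of these data known. Named genes were all members, ratio genes and the most abundant marker per list. Up to 3 called, non-overlapping genes with a mean of at least 100 were also named per pathway list. Mgp, Pecam1, Ptprc, Kdr, Vwf, Sox2 and overlapping genes were added outside this rule after their values were seen. So were Edar, Edaradd, Bak1, Tmem119, Aif1, Cx3cr1, P2ry12, Cd3e, Gh, Tbx19 and the p53 element search. Btg2, Ddit4, Atf3, Atf4, Chac1, Ddit3 and Trib3 were added in the same way. The pseudogene Trp53-ps was also named outside this rule. P-values rest on the spread between 2 pools per group, which limma adjusts for each gene toward the trend over all genes tested. They do not measure the spread between mice.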

Additional observations from a re-analysis of the deposited data

How the results depend on the processing

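The 9151 genes called became 5934 with a filter at a mean of 100, where fewer genes were tested, and 4147 to 9700 with 1 library left out. Members called higher were 6 with libraries rescaled to equal totals, 5 with quantile normalization and 6 by adjusted p alone. The shares of all genes tested that were higher were 35.2%, 22.5% and 33.4%, in the same order. The shares that were lower were 26.9% with quantile normalization and 25.5% by adjusted p alone. Counts of members with 1 library left out rest on 1 library in a group, so they are not set against a background. Members called lower were 2 with quantile normalization, 3 by adjusted p alone and 0 to 2 with 1 library left out; the cause of the scaling differences was not tested. A library left out leaves 1 in its group, assumed to vary like the rest. With quantile normalization, added after seeing the data for the ratios, the log2 difference of Bax to Bcl2l1 was 1.92 and that of Bbc3 to Mcl1 turned to -0.996; the cause was not tested. Rescaling to equal totals moved the median of all genes by 0.47 and quantile normalization by -0.28.

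Signs turned for Trp53inp1 (-0.0387 with DESeq2, -0.0728 with edgeR, -0.43 to 0.453 with 1 library left out), Rgs5 (-0.52 to 0.539 with 1 library left out), Mdm4 (0.0148 with equal totals, 0.0449 with quantile normalization), Mgp (0.0786 with equal totals), Wrap53 (0.44 with equal totals, -0.17 to 0.104 with 1 library left out), Trp53-ps (-0.24 with quantile normalization), Edar (0.166 with equal totals), Cx3cr1 (-0.697 with quantile normalization, -0.404 to 0.605 with 1 library left out) and P2ry12 (-0.545 with quantile normalization); the cause was not tested. Of the other values of single genes, 899 kept direction and call, 34 lost the call and 20 gained it.

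With the replicate block 9525 genes were called, 3 members higher and 1 lower. Same-numbered libraries deviated from their group means with a correlation of 0.0251 across 20485 genes, and no source used here says whether equal numbers mark a shared litter or batch.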
